A study of Mus musculus with 10 samples.

Results

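Batf, Batf3, Irf4, Irf8, Irf2 and Bcl11b encode 6 transcription factors of T cell activation and identity. They were found by gene name among the 57825 genes of the expression table, where each name is listed 1 time. The data are RNA-seq profiles of 10 samples of CD8+ T cells, labelled as cytotoxic T lymphocytes from mouse spleen and co-cultured with 4T1 cells, a Balb/c mammary carcinoma line, with a time label of day 3 that does not say what the days are counted from. In the CD8+4T1 group (5 samples) the T cells met the tumor cells without added acetate, and in the CD8+4T1+NaAc group (5 samples) they had been given sodium acetate (NaAc). The study's co-culture methods describe T cells from spleens of female Balb/c mice aged 7 to 8 weeks, with no engineered allele named, which were activated for 12 h on plate-bound anti-CD3 with anti-CD28 and IL-2. They were then kept with or without 5 mM NaAc for 24 h and co-cultured for 48 h, and RNA was taken from purified CD8+ T cells. Every sample therefore shares the activation and the tumor cells, so resting T cells and T cells without tumor cells are not among the groups. The labels do not say whether the samples of a group came from separate mice or cultures, so p-values measure the spread between these samples, which may be technical.

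The members work at the step where T cell receptor signals become a gene program. BATF and BATF3 are small basic leucine zipper proteins that lack an activation domain and bind DNA as dimers with JUN proteins. IRF4 and IRF8 are interferon regulatory factors that bind weakly by themselves and join either BATF-JUN dimers on composite AP-1-IRF elements or ETS proteins on ETS-IRF elements. In CD8+ T cells, IRF4 is induced in proportion to receptor signal strength and is needed together with BATF for expansion and effector differentiation. IRF2 is best known as a repressor that competes with IRF1 on interferon response genes, and BCL11B is a zinc finger factor that establishes and maintains T cell identity. BATF3 and IRF8 are also the defining factors of a class of dendritic cells, which makes markers of that cell type relevant here.

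Levels are given as FPKM, the fragments of a gene divided by its length and by the sequencing depth, so that levels can be compared between genes. Sequencing depth ran from 16306447 to 18853726 fragments a sample, and between 274 (Batf) and 13298 (Irf8) fragments lay behind each value of a member. Replicate 1 stood apart in both groups: 20233 genes were detected in that of CD8+4T1+NaAc, while its 4 companions had 24681 to 25088, and 22291 in that of CD8+4T1, while its companions had 23786 to 24054. Without both of them the same 5 members were called. The FPKM total of the listed genes was between 310965 and 335151 in CD8+4T1 and between 282995 and 295928 in CD8+4T1+NaAc, so the scaling of the samples bears on small fold changes. The listed genes held 95.5% to 97.9% of the fragments in CD8+4T1 and 89.8% to 92.1% in CD8+4T1+NaAc, again with no overlap. The T cell identity of the samples was checked against 12 markers, whose summed level was 1013 to 1133 FPKM in CD8+4T1 and 909.1 to 1007 FPKM in CD8+4T1+NaAc, with no overlap. The fall was not shared by all: 7 markers were called lower and 0 higher, where 19.0% of all genes tested were called lower. Cd8a averaged 78.6 FPKM without and 76.5 FPKM with NaAc, and Cd8b1 147.4 and 166.6 FPKM. Neither of these CD8 genes was called (limma adjusted p = 0.559 and 0.237). Of a list of 20 epithelial and 4T1 genes, 12 passed the filter on low values (a mean of 0.5 FPKM) and 10 of these rose, where 17.6% of all genes tested were called higher. The count depends in part on the filter, which Krt7, Cldn3 and Ocln passed only through the NaAc samples (CD8+4T1 means of 0.143, 0.380 and 0.272 FPKM). Without any filter, the summed level of the 20 was 67.9 to 86.3 FPKM in CD8+4T1 and 173.9 to 345.9 FPKM in CD8+4T1+NaAc. Most of the CD8+4T1 sum came from Cd24a, which changed little (means of 43.6 FPKM without and 49.9 FPKM with NaAc). Other genes rose far more, such as Krt8 (3.42 to 34.2 FPKM) and Lcn2 (3.99 to 40.2 FPKM). Epcam and Cldn7 were tested and not called. What part these shifts have in the results below was not tested, and in such bulk samples fewer T cells and less RNA per T cell cannot be told apart.

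Of the 6 factors, 5 were lower with NaAc at an adjusted p under 0.05, and 0 were higher, also at an unadjusted p (limma over 15710 genes on log2(FPKM + 0.1), Benjamini-Hochberg adjustment). All 6 had a mean above the minimum of 0.5 FPKM, and voom on the recovered fragments made the same 5 calls. Batf3 fell most, to 58.6% of its CD8+4T1 mean, followed by Irf4 at 68.6%, Irf2 at 70.4%, Bcl11b at 76.4% and Batf at 81.9%. Irf8 stayed at 96.7% and did not pass the test. Among all genes tested 19.0% were called lower, 17.6% higher and 36.5% in either direction, so a single call of this kind is common in these data. The groups did not overlap for 4 of the 6 factors (Batf3, Irf4, Irf2 and Bcl11b), each lower with NaAc; of all genes tested, 13.3% were lower without overlap, 13.1% higher and 26.4% either. The plot of FPKM by sample shows the size of each shift against the spread of the replicates.

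**Figure D1:**
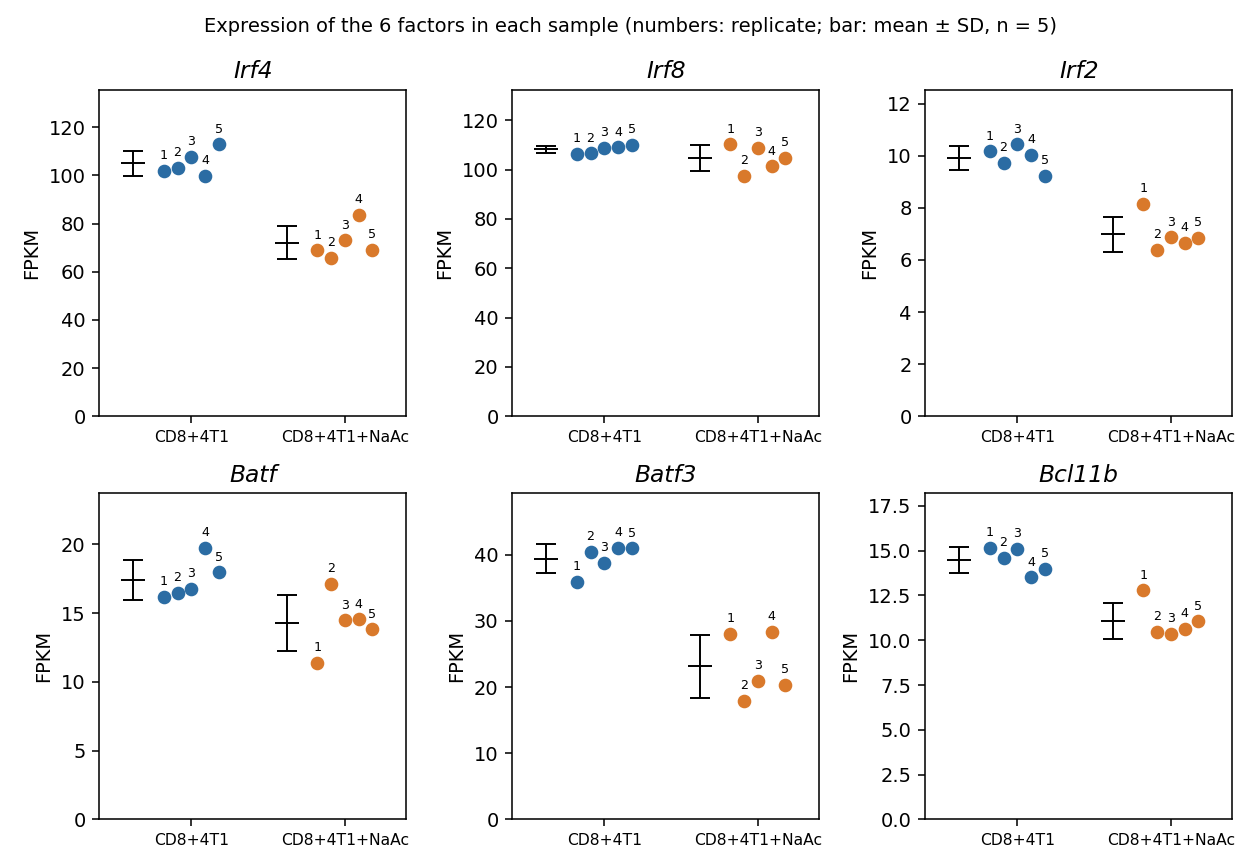
FPKM (linear axis from 0) of the 6 factors in the 5 CD8+4T1 samples (blue) and the 5 CD8+4T1+NaAc samples (orange), with replicate numbers beside the points and the mean ± SD to their left. All 5 orange points lie below all 5 blue points for Irf4, Irf2, Batf3 and Bcl11b, while the groups overlap for Irf8 and Batf.

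The sequences upstream of 4 members are shown because Irf4, Irf2 and Batf3 moved together while Irf8 did not. They are the 250 bases before the RefSeq gene start in GRCm38.p6, read 5' to 3' on the gene's strand: Irf4 at chr13:30748983-30749232 (+), Irf8 at chr8:120736108-120736357 (+), Irf2 at chr8:46739495-46739744 (+) and Batf3 at chr1:191098164-191098413 (+). Capitals mark matches, on either strand, to the AP-1 site TGANTCA, the IRF element (GAAA and GAAA with 2 bases of any kind between them), the ETS-IRF element (GGAA, 2 bases of any kind, GAAA), the BATF-IRF composites (GAAA directly before TGANTCA, or TTTC, 4 bases of any kind and TGANTCA), which contain an AP-1 site, and the TATA box TATAAA.
Irf4: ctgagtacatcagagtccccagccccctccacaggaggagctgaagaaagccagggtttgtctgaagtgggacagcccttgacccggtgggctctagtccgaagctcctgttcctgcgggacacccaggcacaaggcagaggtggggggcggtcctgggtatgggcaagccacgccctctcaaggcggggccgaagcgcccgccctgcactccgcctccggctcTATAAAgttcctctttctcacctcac
Irf8: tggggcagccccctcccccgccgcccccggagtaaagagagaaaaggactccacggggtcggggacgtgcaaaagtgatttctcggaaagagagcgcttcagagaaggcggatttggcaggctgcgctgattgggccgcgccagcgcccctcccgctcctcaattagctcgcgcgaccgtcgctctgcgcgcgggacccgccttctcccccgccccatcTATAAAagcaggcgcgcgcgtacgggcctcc
Irf2: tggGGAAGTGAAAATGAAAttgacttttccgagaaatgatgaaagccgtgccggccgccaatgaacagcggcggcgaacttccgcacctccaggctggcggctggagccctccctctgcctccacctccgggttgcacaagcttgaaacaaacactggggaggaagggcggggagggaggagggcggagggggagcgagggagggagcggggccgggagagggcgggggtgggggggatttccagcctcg
Batf3: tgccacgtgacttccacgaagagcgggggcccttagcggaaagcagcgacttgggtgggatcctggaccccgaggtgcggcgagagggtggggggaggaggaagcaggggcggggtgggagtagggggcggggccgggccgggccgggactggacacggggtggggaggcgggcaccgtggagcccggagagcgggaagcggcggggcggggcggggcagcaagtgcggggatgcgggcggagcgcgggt
The Irf2 window held an ETS-IRF element (GGAAGTGAAA, starting 247 bases before the gene start) that overlaps an IRF element (GAAAATGAAA, starting 241 bases before it). These motifs were in 2.30% and 2.98% of 32851 such windows of all genes. Irf4 and Irf8, which differed in response, shared a TATAAA, 26 and 31 bases before their starts; it was in 12.4% of all windows. No window of the 6 members held the AP-1 site (6.75% of all windows) or either composite (0.10% and 0.097%), which says only that these letters are not in these windows. GC content was 76.0% in the Batf3 window, 67.2% for Irf8, 65.2% for Irf2, 63.6% for Irf4, 46.4% for Batf and 44.8% for Bcl11b, with a median of 52.4% over all windows.

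Irf4 (ENSMUSG00000021356), the IRF that scales with T cell receptor signal, is listed on chromosome 13 from 30933209 to 30950959. These and the following listed positions are those of the expression table, whose build is not named and whose gene starts differ from GRCm38.p6 for each member. In CD8+4T1, replicates 1 to 5 had 101.9, 103.1, 107.8, 99.96 and 112.9 FPKM. In CD8+4T1+NaAc they had 68.9, 65.7, 73.1, 83.6 and 69.2 FPKM. The highest NaAc sample, replicate 4, was thus below the lowest sample without NaAc. The log2 fold change was -0.55 (standard error 0.07, limma adjusted p = 0.000164), and with any single sample left out it lay between -0.60 and -0.51 and remained called. The replicate spread was 4.95% of the mean in CD8+4T1 and 9.63% in CD8+4T1+NaAc, while the counting error of a single value was 1.17%.

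Irf8 (ENSMUSG00000041515; chromosome 8, 121463097 to 121483433), the closest relative of IRF4, was the most abundant member. It had 106.5, 106.6, 108.8, 109.0 and 110.1 FPKM in replicates 1 to 5 of CD8+4T1, and 110.2, 97.6, 109.0, 101.3 and 104.9 FPKM in CD8+4T1+NaAc. The ranges overlapped, with the single highest and the single lowest value both in the NaAc group. The log2 fold change was -0.05, with a 95% interval from -0.15 to 0.05 (limma adjusted p = 0.424), so a fall of the size seen for Irf4 lies outside the interval. On other scalings the sign of this small value turned: it was 0.13 (limma adjusted p = 0.0699) with all samples brought to the same FPKM total and 0.17 (limma adjusted p = 0.0379) relative to the T cell markers.

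Irf2 (ENSMUSG00000031627; chromosome 8, 47192767 to 47300493), the IRF1 competitor, was the least abundant member. Its values in CD8+4T1 were 10.2, 9.74, 10.4, 10.03 and 9.24 FPKM, and those in CD8+4T1+NaAc were 8.14, 6.40, 6.87, 6.66 and 6.84 FPKM. Replicate 1 was the highest NaAc sample and still below each CD8+4T1 sample. The log2 fold change was -0.50 (standard error 0.07, limma adjusted p = 0.000294), between -0.56 and -0.48 with any single sample left out. Its counterpart Irf1, which was not a member, had 55.6 FPKM (SD 2.42, n = 5) without and 55.1 FPKM (SD 5.45, n = 5) with NaAc and did not pass the test (limma adjusted p = 0.875).

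Batf3 (ENSMUSG00000026630; chromosome 1, 190830044 to 190841142), a bZIP partner of JUN proteins, showed the largest shift of the members. In CD8+4T1 it had 35.9, 40.4, 38.7, 41.1 and 41.0 FPKM, and in CD8+4T1+NaAc 28.1, 17.9, 20.9, 28.3 and 20.3 FPKM. The NaAc samples formed a wide range, with replicates 1 and 4 above the other 3 and all 5 below the lowest CD8+4T1 sample. The log2 fold change was -0.79 (standard error 0.12, limma adjusted p = 0.000614), and 5.34% of the genes tested had a more negative value. It was between -0.87 and -0.70 with any single sample left out, and -0.90 with replicate 1 of both groups left out.

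Batf (ENSMUSG00000034266; chromosome 12, 85733443 to 85755861), the family member required for CD8+ effector expansion, had the least stable result. It had 16.2, 16.5, 16.7, 19.8 and 18.0 FPKM in CD8+4T1 and 11.4, 17.1, 14.5, 14.5 and 13.8 FPKM in CD8+4T1+NaAc. The groups overlapped through replicate 2 of the NaAc group, which lay above 3 CD8+4T1 samples. The log2 fold change was -0.29 (standard error 0.10, limma adjusted p = 0.0384). The call was lost without replicate 2, 3, 4 or 5 of CD8+4T1 and without replicate 3, 4 or 5 of CD8+4T1+NaAc (log2 fold change -0.31 to -0.25, limma adjusted p from 0.0526 to 0.0891). With the same FPKM total in every sample the value was -0.12 (limma adjusted p = 0.327).

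Bcl11b (ENSMUSG00000048251; chromosome 12, 107876662 to 107969861, minus strand), the T cell identity factor, had 15.2, 14.6, 15.1, 13.5 and 13.99 FPKM in CD8+4T1. In CD8+4T1+NaAc it had 12.8, 10.5, 10.3, 10.6 and 11.1 FPKM. The groups were separate, with replicate 1 again the highest of the NaAc samples. The log2 fold change was -0.39 (standard error 0.07, limma adjusted p = 0.00102), between -0.44 and -0.37 with any single sample left out. Relative to the T cell markers it was -0.17 and no longer called (limma adjusted p = 0.148).

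A change of scaling shifts the log2 fold change of every gene by nearly the same amount, so it decides which of the smaller effects were called. Over all genes tested, the median log2 fold change was -0.02 for the FPKM as deposited, 0.16 after bringing every sample to the same FPKM total and 0.20 relative to the T cell markers. Batf3, Irf4 and Irf2 were called lower on each of these scales. Relative to the T cell markers their log2 fold changes were -0.57, -0.33 and -0.29 (limma adjusted p = 0.00433, 0.00335 and 0.0216). On that scale 3 members were called lower and 1, Irf8, was called higher. Of all 15770 genes tested there, 1058 were called lower and 5365 higher, so a higher call was common. The distance of a gene from the median of all genes is nearly fixed under such scalings by their construction; for the FPKM as deposited it was -0.77 for Batf3, -0.53 for Irf4, -0.49 for Irf2, -0.37 for Bcl11b, -0.28 for Batf and -0.03 for Irf8.

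**Figure D2:**
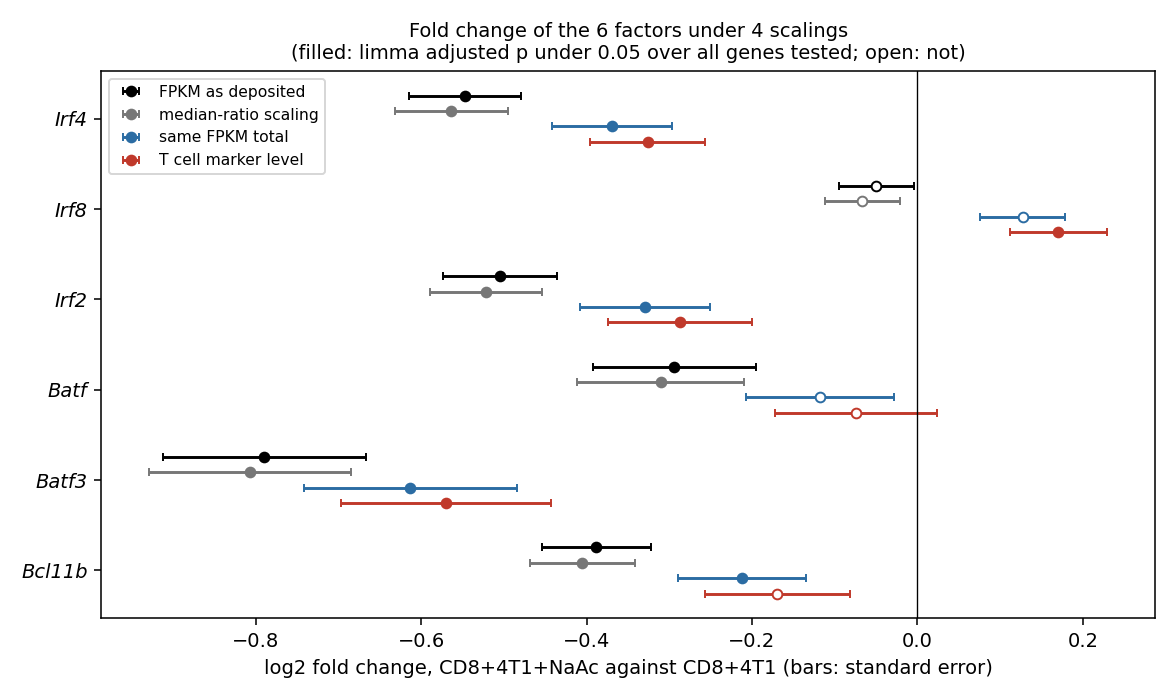
Log2 fold change of each factor with its standard error (x axis, CD8+4T1+NaAc against CD8+4T1) for the FPKM as deposited and under 3 other scalings; filled points passed an adjusted p under 0.05. Batf3, Irf4 and Irf2 are filled under every scaling, Bcl11b is open relative to the T cell markers, Batf is open with the same FPKM total and relative to the T cell markers, and Irf8 crosses 0.

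Ratios between members within a sample do not depend on the scaling of that sample. All 15 pairs were compared on the log2 scale with a two-sided exact permutation test, whose smallest possible p for 5 against 5 samples is 0.00794. Of these pairs 5 had an adjusted p under 0.05 over the 15, and 4 of the 5 set Irf8 against a member that fell. The Irf4/Irf8 log2 ratio went from -0.04 (SD 0.06) to -0.54 (SD 0.15), with no overlap (exact permutation adjusted p = 0.0298). In linear terms Irf4 was 0.971 times as abundant as Irf8 without NaAc and 0.688 times with NaAc, so that a near-equal pair became unequal. The Batf3/Irf8 log2 ratio fell by 0.74 and the Irf8/Irf2 and Irf8/Bcl11b ratios rose by 0.46 and 0.34, each with no overlap between groups and the same adjusted p of 0.0298 in the exact permutation test. The fifth pair, Irf2/Bcl11b, fell by 0.12 with overlapping groups (exact permutation adjusted p = 0.0476); it was not called with a pseudocount of 1 and was called in 2 of 10 fits that left out a single sample.

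Among the 5 falling members, Irf2/Bcl11b was the only ratio that passed. The largest differences that did not were Batf/Batf3, Batf3/Bcl11b (-0.40, exact permutation adjusted p = 0.0595) and Batf3/Irf2 (-0.29, exact permutation adjusted p = 0.0952). At the other end, Irf4/Irf2 was 3.39 (SD 0.12) without and 3.35 (SD 0.20) with NaAc on the log2 scale, a difference of -0.04 (exact permutation adjusted p = 0.810). Batf/Batf3 had the widest spread of the 15 pairs in CD8+4T1+NaAc: it lay between -1.29 and -1.05 in CD8+4T1 and between -1.29 and -0.07 in CD8+4T1+NaAc. In the NaAc group replicate 2 had the highest Batf and the lowest Batf3 value, while replicate 1 had the lowest Batf and the second highest Batf3 value. The difference of the means, 0.50, did not pass the test (exact permutation adjusted p = 0.0952). The calls on ratios are close to what the number of samples allows: with 1 sample left out, between 0 and 7 pairs passed, and 0 passed without replicate 1, 2 or 3 of CD8+4T1 or without replicate 5 of CD8+4T1+NaAc.

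**Figure D3:**
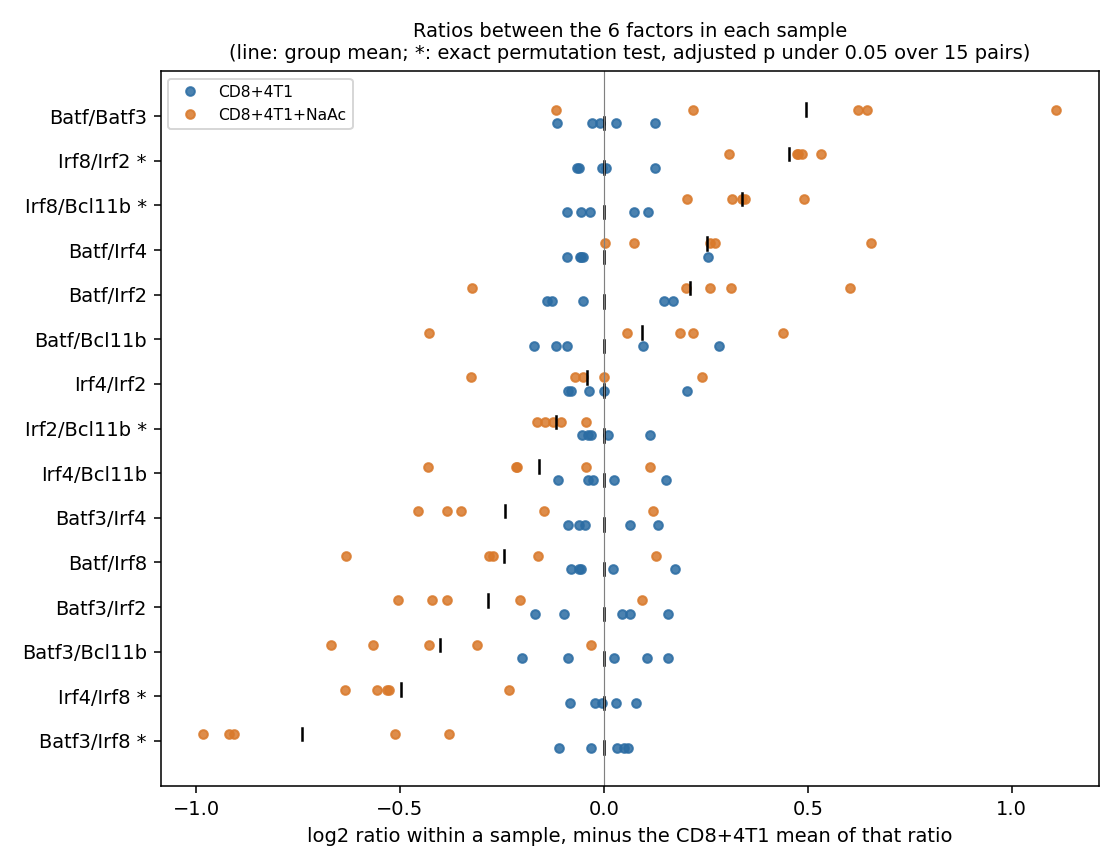
Log2 ratio of each pair of factors in the 5 CD8+4T1 samples (blue) and 5 CD8+4T1+NaAc samples (orange), minus the CD8+4T1 mean of that ratio; black lines are group means and stars mark an adjusted p under 0.05 over 15 pairs. The starred pairs are Irf8/Irf2, Irf8/Bcl11b, Irf2/Bcl11b, Irf4/Irf8 and Batf3/Irf8, and Batf/Batf3 has the widest orange spread.

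In order of level, Irf8 (108.2 FPKM) and Irf4 (105.1 FPKM) led in CD8+4T1 and their ranges overlapped. Batf3 (39.4 FPKM), Batf (17.4 FPKM), Bcl11b (14.5 FPKM) and Irf2 (9.92 FPKM) followed, each without overlap with its neighbour. In CD8+4T1+NaAc the order was the same, at 104.6, 72.1, 23.1, 14.3, 11.1 and 6.98 FPKM. There Irf8 and Irf4 no longer overlapped, whereas Batf and Bcl11b did. Each of the 6 factors varied more among the NaAc samples than among the CD8+4T1 samples, for example 20.6% against 5.49% of the mean for Batf3.

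Because Batf3 and Irf8 mark dendritic cells, markers of that cell type were read in the same samples. Of 12 dendritic cell markers, Siglech, Cd209a and Clec9a had at most 3 fragments in any sample, and Xcr1 had at most 11. Zbtb46 had 213 to 356 and Itgax 60 to 111 fragments, and neither was called, whereas Naaa and Ccr7 were called higher with NaAc (log2 fold change 0.38 and 0.32, limma adjusted p = 0.00555 and 0.0439). The summed level of the list was 456.8 to 550.3 FPKM in CD8+4T1 and 495.2 to 686.0 FPKM in CD8+4T1+NaAc, of which Ccr7 and Bst2, which T cells also express, made up most. Of the B cell markers Cd22, Ms4a1 and Pax5 had at most 3 fragments in any sample, and the 10 genes summed to 4.79 to 5.50 FPKM without and 5.62 to 6.88 FPKM with NaAc. Of 12 macrophage and monocyte markers, C1qa, C1qb and C1qc were at most at 3 fragments, while 4 were tested and 2 were called higher, Lyz2 and Mpeg1 (log2 fold change 0.96 and 0.95, limma adjusted p = 0.0328 and 0.0152). That list summed to 25.7 to 35.6 FPKM without and 27.8 to 31.8 FPKM with NaAc, most of it from Cd68. Cd4, the defining gene of the other T cell lineage, rose from a mean of 0.541 to 1.60 FPKM (log2 fold change 1.44, limma adjusted p = 0.000317). What part these cells have in the results was not tested. Spi1, which encodes the ETS partner PU.1 of IRF4 and IRF8 in myeloid cells, averaged 0.0852 and 0.207 FPKM and was not tested, whereas the related Spib averaged 13.6 FPKM (SD 1.46) without NaAc and had a log2 fold change of -0.17 (limma adjusted p = 0.0823). Within the T cell list itself, 7 of 12 genes fell, with a median log2 fold change of -0.28 that is of the same size as that of Batf. Beside these marker counts, 19.0% of all genes tested were called lower and 17.6% higher.

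The nearest relatives and DNA-binding partners were read as a further list. Of 15 such genes, 13 were tested, 3 rose and 0 fell in limma, a share of 23.1% called beside 36.5% of all genes tested, of which 19.0% were lower; whether the list differs from other genes was not tested. In limma 1 of them, Spib, was lower at an unadjusted p under 0.05, and voom called 0 lower. The 10 genes that were not called had log2 fold changes between -0.17 and 0.29. One of them, Spib, was called lower without replicate 5 of CD8+4T1. Jun and Jund, which encode dimer partners of BATF proteins, rose by 0.43 and 0.33 on the log2 scale (limma adjusted p = 0.0147 and 0.00621). Jun averaged 27.4 FPKM (SD 4.16, n = 5) without and 36.9 FPKM (SD 4.70, n = 5) with NaAc, and Jund 73.9 (SD 4.11) and 93.3 FPKM (SD 9.73). The groups overlapped for both genes. Junb, the other JUN gene of the list, was more abundant, at 175.4 FPKM without and 192.8 FPKM with NaAc. It was not called (log2 fold change 0.13, limma adjusted p = 0.337). Batf2, the third BATF family member, was at 0.349 FPKM (SD 0.223, n = 5) without NaAc and rose to a mean of 1.10 FPKM (SD 0.272, n = 5). The groups did not overlap, but only 6 to 61 fragments per sample lay behind these values (limma adjusted p = 0.00633). Batf2 passed the filter of 0.5 FPKM only through the NaAc samples, so its place among the genes tested depended on the rise itself. It was also called higher when no filter was applied. The table labels 9 genes as IRF factors; all were tested, and 2 were called, Irf4 and Irf2, both lower, where 36.5% of all genes tested were called. Of 53 genes labelled as bZIP factors, the family of Batf and Batf3, 45 were tested, of which 25 (55.6%) were called, 14 lower and 11 higher. Of 609 genes labelled as C2H2 zinc finger factors, the family of Bcl11b, 79 of those tested (20.2%) were called, 51 lower and 28 higher. These family labels were looked up after the results were seen.

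Genes upstream and downstream moved in both directions. The upstream list held genes of receptor, NF-kB and NFAT signalling together with Mtor, Stat3 and Ikzf1. Of its 15 genes, 5 fell and 3 rose, Stat3 among the latter, with a median log2 fold change of -0.14. This is 53.3% called, where 36.5% of all genes tested were called, 19.0% lower and 17.6% higher. Bcl10 (-0.43, limma adjusted p = 0.000161) and Malt1 (-0.32, limma adjusted p = 0.0168), which encode adaptors of NF-kB activation, fell. Nfkb1 (-0.36), Cd3e (-0.36) and Rela (-0.21) also fell, although Rela was at 0.0055 relative to the T cell markers. The number of rising genes in this list was 1 without replicate 2 of CD8+4T1 and without replicate 3, 4 or 5 of CD8+4T1+NaAc.

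Of 20 genes linked to the BATF and IRF4 effector program, 19 were tested, of which 8 fell and 4 rose (median log2 fold change -0.03), or 63.2% called beside 36.5% of all genes tested. The lower genes included Tbx21, the master regulator T-bet (53.4 to 35.8 FPKM, log2 fold change -0.58), the costimulatory receptor gene Icos (-0.60), the IL-2 receptor gene Il2ra (-0.30), the inhibitory receptor genes Tigit (-0.31) and Pdcd1 (-0.20), and the glucose handling genes Slc2a3 (-0.70), Slc2a1 (-0.61) and Hk2 (-0.55). Each had a limma adjusted p of at most 0.00713; Pdcd1 was at 0.018 relative to the T cell markers. The higher genes included Bcl6, a repressor known for opposing effector fate (1.26 to 4.06 FPKM, log2 fold change 1.62, limma adjusted p = 2.01e-05), Havcr2, which encodes the inhibitory receptor TIM-3 (2.63 to 7.43 FPKM, 1.46, limma adjusted p = 9.05e-06), and Id2 (0.29). The members of this list that moved thus did not share a direction. After the same FPKM total was set in every sample, 5 fell and 7 rose, where 1386 of all 15745 genes tested were called lower and 4919 higher.

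Of 13 regulators of T cell identity read beside Bcl11b, 12 were tested, of which 2 fell and 3 rose (median log2 fold change 0.07), or 41.7% called, near the 36.5% of all genes tested. Lef1 (-0.41, limma adjusted p = 0.000679) and Satb1 (-0.29, limma adjusted p = 0.00519) fell as Bcl11b did. Myb (0.68), Gata3 (0.57) and Tcf7, which encodes TCF-1 (0.23), rose with limma adjusted p-values of at most 0.0158. Without replicate 1 of CD8+4T1+NaAc 4 genes fell. A further list held 13 interferon response genes, chosen as genes with IRF elements, which were not checked gene by gene here. Of these 13 genes, 12 were tested, of which 5 rose and 1 fell (median log2 fold change 0.16), or 50% called beside 36.5% of all genes tested. Socs1, a brake on cytokine signalling, rose by 0.76, Oasl1 by 1.02, Ifit1 by 0.60 and Nlrc5 by 0.23 on the log2 scale, and the immunoproteasome gene Psmb9 fell by 0.30 (limma adjusted p at most 0.0204).

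Most of the smaller falls in these lists depended on the scaling, as that of Batf did. With the same FPKM total in every sample, Malt1, Rela, Il2ra, Tigit, Pdcd1, Satb1 and Psmb9 were no longer called, and relative to the T cell markers Nfkb1 and Cd3e, itself one of those markers, were not called either. The falls of Bcl10, Tbx21, Icos, Slc2a1, Slc2a3, Hk2 and Lef1 and the rises named above kept their calls on both scales.

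**Figure D4:**
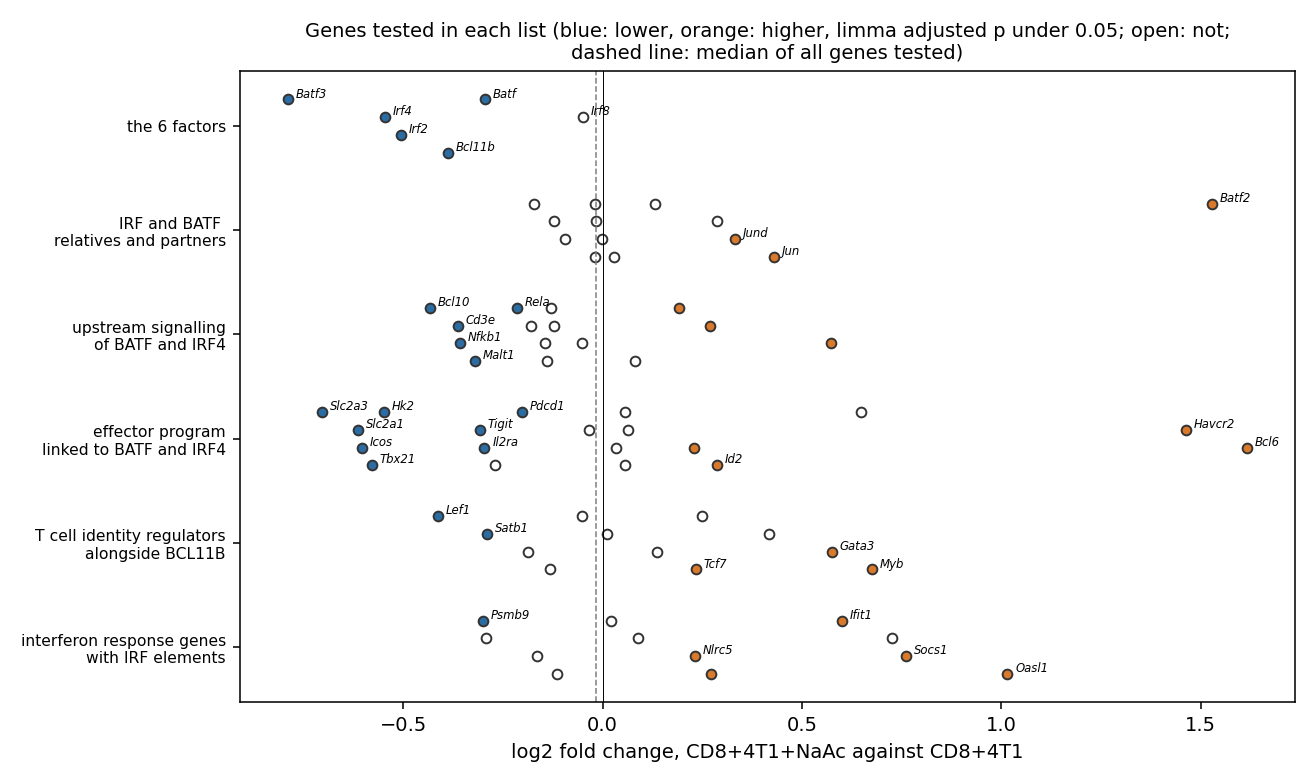
Log2 fold change (x axis, CD8+4T1+NaAc against CD8+4T1) of every tested gene of the 6 factors and of 5 gene lists; blue and orange points were called lower and higher, open points were not called, names are those of genes described in the text, and the dashed line is the median of all genes tested (-0.02). The 5 called factors lie left of the line, whereas the relatives and partners have called genes only on its right and the other lists on both sides.

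For each member, the 3 protein-coding genes with the most similar profile were sought among 7052 genes averaging 5 FPKM or more, by the root mean square difference of centred log2 values over the 10 samples. For Irf4 these were Dtx3l (0.0687), Treml2 (0.0710) and Tnfrsf9 (0.0725), the last of which encodes the costimulatory receptor 4-1BB and averaged 481.4 FPKM without and 324.2 FPKM with NaAc. Batf3 had no profile as close: its nearest were Bcl2, the survival factor gene (0.144), Ccdc58 (0.147) and Cdk6 (0.149). The difference is not scaled to the spread of the member, which was largest for Batf3. The SD of its log2 values over the 10 samples was 0.440, beside 0.290 for Irf4 and 0.0542 for Irf8. The nearest profile of Bcl11b was that of Wipf2 at 0.0282, and that of Irf8, which varied least among the samples, was Mgat1 at 0.0265. All profiles share the same 10 libraries. Without replicate 1 of both groups, 0 of the 3 genes remained for Irf4 and 1 of 3 for Batf3 and for Bcl11b. With a pseudocount of 1, 1 of 3 remained for Irf4 and for Bcl11b.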

How the data were processed

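Expression of 10 samples of CD8+ T cells, 5 per group, was read from a single table. The authors deposited FPKM, 1 column per sample, not pooled, with gene length as an other, unnormalized column. The submitters' processing notes name fastp, HISAT2 2.0.5, StringTie 1.3.3b and featureCounts 1.5.0-p3; genome build, annotation and strand setting are not given in the sources used here. Dividing FPKM times length by each sample's step gave whole fragments for 100% of values (within 0.1 of a whole number). The study's own comparison used a count model, per its methods; since the deposited values are FPKM, no count model was the main test here.

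The groups were compared by limma 3.58.1 (R 4.3.3), with variance trend and robust moderation, on log2(FPKM + 0.1) of the 15710 of 57825 genes whose mean reached 0.5 FPKM. Fold changes are on this scale, which understates those of low genes. A call is a Benjamini-Hochberg adjusted p under 0.05 over all genes tested. This step was first tested on simulated data. Ratios were tested with scipy 1.17.1 and figures drawn with matplotlib 3.10.9. Promoter sequences are RefSeq's for GRCm38.p6; all 6 members matched by symbol.

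The members and lists were chosen with earlier results of these data known. Named are the 6 members, genes of the lists and the 3 nearest profiles per member. The alternatives were pseudocounts of 1 and 0.01, no filter, a mean of at least 5 FPKM, 3 other scalings, plain limma, the replicate number as a block, protein-coding genes alone, voom on the fragments, leaving out replicate 1 of both groups and leaving out each sample. Those for the nearest profiles, the family labels and the TATAAA search were chosen after seeing the data. Results for some list genes are not reported here.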

Additional observations from a re-analysis of the deposited data

Results flagged for a closer look

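Of 100 groups of 5 values checked for the members, their ratios and the named genes, 9 had a sample whose gap to its nearest neighbour exceeded 0.71 of the range of the group, where chance gives about 5. No member was among them by its own level. For ratios, replicate 4 of CD8+4T1 had the highest Batf/Irf4 log2 ratio of its group (-2.33, a gap of 0.885 of the range). Replicate 4 of CD8+4T1+NaAc had the highest Irf4/Irf8 ratio (-0.28, a gap of 0.731), and replicate 1 of that group the lowest Irf8/Irf2 ratio (3.74, a gap of 0.733). Replicate 2 of CD8+4T1+NaAc was the lowest of its group for Lef1 on the log2 FPKM scale (a gap of 0.898), Il2ra (0.870) and Slc2a3 (0.711). Replicate 1 of CD8+4T1 had the lowest for Psmb9 (0.836) and Bcl10 (0.770), and replicate 4 of CD8+4T1 the highest for Pdcd1 (0.8289).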

How the results depend on the processing

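Batf3, Irf4 and Irf2 kept their direction and their call under each of the 22 alternatives, Bcl11b under 21. Batf lost its call without the filter (-0.29, limma adjusted p = 0.0740), with plain limma (-0.29, 0.0559), with the same FPKM total (-0.12) and relative to the T cell markers (-0.0746); Bcl11b lost it on the last scale (-0.17), where 3 members were called lower and 1 higher. Irf8 turned to 0.13 with the same total and 0.17 relative to the T cell markers. With single samples left out, Batf was between -0.36 and -0.22, and 4 or 5 members were called lower. Calls over all genes (5742; 2764 higher, 2978 lower) were 3733 and 1257 higher at a mean of at least 5 FPKM; 4919 were higher and 1386 lower (78.0% higher) with the same total, and 5365 and 1058 (83.5% higher) relative to the T cell markers, against 48.1% as deposited.

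With the same total and relative to the T cell markers, the genes called higher numbered 5 and 7 among relatives and partners, 7 and 9 in the effector program, and 7 and 7 among identity regulators. Those called lower numbered 3 and 1 upstream, 5 and 5 in the effector program, 1 and 1 among identity regulators, and 0 and 0 among interferon response genes, which had 3 higher at a mean of at least 5 FPKM. Relative to the T cell markers Rela was at 0.0055 and Pdcd1 at 0.018. Without replicate 1 of both groups 4 identity regulators were lower. With single samples left out, 1 to 4 upstream genes were higher, 0 to 1 relatives lower and 2 to 4 identity regulators lower. The cause was not tested.

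Same-numbered samples deviated together only weakly (correlations between -0.03 and 0.07), so replicate numbers were not taken as pairs. With the replicate block 5399 genes were called, 2 interferon response genes were lower, and 0 of the 15 ratios passed, since sign changes of 5 pairs cannot give a p under 0.0625. Without replicate 1 of both groups 0 ratios passed as well, and with single samples left out 0 to 7. With fewer samples the smallest possible p of the exact permutation test is above the 0.00794 of 5 against 5. These counts therefore depend in part on the number of samples. Irf4/Irf2 was 0.0093 without replicate 1 of both groups and between -0.112 and 0.0295 with single samples left out (0.0094 without replicate 5 of CD8+4T1). Depth limits Batf2 and the genes under 1 FPKM. Batf had 274 to 458 fragments per sample. Its counting error was 5.15%, beside replicate spreads of 8.47% in CD8+4T1 and 14.3% in CD8+4T1+NaAc. The values of the other members rest on at least 539 fragments.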
